A study of Mus musculus with 6 samples.

Results

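Prostaglandins are lipid signals made from arachidonic acid, and 10 genes of their synthesis and reception were followed here in astrocytes sorted from upper and deep layers of the mouse neocortex. The genes were taken as the rows of the deposited expression table whose symbol is Ptgs1, Ptgs2, Ptges, Ptges3, Ptgds, Ptger1, Ptger2, Ptger3, Ptger4 or Ptgfr, which gave 10 rows of 43383. They were proposed with the difference between layers already known, so their layer values are given as a description, without a test. Astrocytes came from 4-week-old male Aldh1l1-eGFP mice, a line in which the Aldh1l1 promoter drives GFP in astrocytes, and every library carries this same transgene and no other treatment. GFP-positive cells were collected by FACS from dissected upper layers (upper-layer astrocytes, ULAs) and from dissected deep layers (deep-layer astrocytes, DLAs) of the somatosensory cortex. The dissection left out layer I with the meninges above it, the corpus callosum beneath, and some tissue on either side of the border between layers IV and V. There were 6 libraries, 1 of ULAs and 1 of DLAs from each of 3 brains, so that n = 3 brains for every mean ± SD given here, and the layers are compared within brains.

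Synthesis begins when a phospholipase or a lipase frees arachidonic acid from the membrane. The cyclooxygenases, encoded by Ptgs1 and Ptgs2, turn it into an unstable endoperoxide, and terminal synthases turn that into individual prostanoids: Ptges and Ptges3 into prostaglandin E2 and Ptgds into prostaglandin D2. The products leave the cell and act on G protein-coupled receptors, of which EP1 to EP4 (Ptger1 to Ptger4) bind prostaglandin E2 and FP (Ptgfr) binds prostaglandin F2 alpha. EP2 and EP4 couple to the stimulatory G protein and raise cAMP, EP3 mostly lowers cAMP, and EP1 and FP are linked to calcium. In the brain the pathway is known for its part in fever, pain, inflammation and the control of blood flow.

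Levels are RPKM, that is, reads scaled to the length of the mRNA and to the size of the library, a scale on which genes of different length can be set side by side. Differences are on the scale log2(RPKM + 1), ULA minus DLA, with the standard error of a limma fit that has brain and layer as terms and covers 13999 rows, those whose RPKM averaged 1 or more over the libraries. Of the 10 genes, 6 passed this filter (Ptgs1, Ptgds, Ptger4, Ptges, Ptges3 and Ptger1) and 4 did not (Ptgfr, Ptger3, Ptgs2 and Ptger2). The fit called 100 rows higher in ULAs (0.714%), 128 higher in DLAs (0.914%) and thus 228 in either direction (1.63%) at an adjusted p under 0.05. Of the 6 genes, 1 was called, Ptger4, higher in ULAs. Since the genes were chosen on this contrast, nothing is read from that count. The numbers of called rows were larger without brain 3, at 426 and 687. With the filter on low RPKM dropped, 0 of 27963 rows were called by limma in either direction, Ptger4 included, and 2799 had an unadjusted p under 0.05.

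The depth of the libraries, read from the steps between low RPKM values, was between 19.655 and 29.555 M reads, lowest in the DLAs of brain 2. The summed RPKM of 10 astrocyte markers was 10792 to 11497 in ULAs and 9887 to 10892 in DLAs, with none at 0 in any library. The 9 oligodendrocyte markers summed to 87.1 to 179 in ULAs and to 178 to 281 in DLAs, and 8 of the 9 were higher in DLAs in every brain. Of the 5 oligodendrocyte precursor markers, which summed to 80.5 to 91.5 in ULAs and to 88.1 to 126 in DLAs, Olig1 held nearly all of the sum and Pdgfra was at most 0.07. The 9 microglial markers summed to 63.5 to 77.1 in ULAs and 62.9 to 75.8 in DLAs, while Csf1r, Tmem119 and Cx3cr1, which define these cells, did not exceed 0.89 in any library. The 9 neuronal markers summed to at most 7.35 and the 7 endothelial markers to at most 2.63. The 7 pericyte and smooth muscle markers summed to 16.1 to 23.1 in ULAs and 11.9 to 19.0 in DLAs, and 4 of the 7 were higher in ULAs in every brain. Pdgfrb, at 10.31 to 19.84, held most of this sum and Abcc9 was at 0 in every library. The 8 meningeal fibroblast markers summed to 3.11 to 4.11 in ULAs and 4.98 to 6.29 in DLAs, and 2 of the 8 were higher in DLAs in every brain. Col1a1 held most of this sum, at 2.49 to 3.29 in ULAs and 3.67 to 5.66 in DLAs, and Slc6a13 and Col3a1 were at 0 throughout. In sorted populations of this kind, fewer cells with a transcript and less of it per cell cannot be told apart.

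The promoters of Ptger4, Ptges and Ptgs1, the 3 genes whose RPKM was higher in ULAs than in DLAs in every brain without overlap of the layers, are printed as the 250 bases before the annotated start. They were read 5′ to 3′ from RefSeq on GRCm38.p6, a later build than the mm9 of the expression table, and an entry was found for 9 of the 10 genes. Capitals mark matches to the GC box GGGCGG or the CCAAT box CCAAT on either strand. The cAMP response element TGACGTCA and the TATA box TATAAA were searched in the same way and are not among the letters of these windows.
Ptger4, chr15:5244188-5244437, minus strand: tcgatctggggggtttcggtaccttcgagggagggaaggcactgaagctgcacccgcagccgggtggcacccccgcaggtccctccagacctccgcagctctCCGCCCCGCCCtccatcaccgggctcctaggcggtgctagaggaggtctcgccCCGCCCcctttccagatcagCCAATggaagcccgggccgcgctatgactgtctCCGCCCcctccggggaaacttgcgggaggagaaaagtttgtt
Ptges, chr2:30903298-30903547, minus strand: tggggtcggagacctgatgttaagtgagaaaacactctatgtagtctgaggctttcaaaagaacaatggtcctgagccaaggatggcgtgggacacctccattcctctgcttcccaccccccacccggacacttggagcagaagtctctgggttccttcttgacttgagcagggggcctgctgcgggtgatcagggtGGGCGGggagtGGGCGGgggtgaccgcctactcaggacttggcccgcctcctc
Ptgs1, chr2:36230176-36230425, plus strand: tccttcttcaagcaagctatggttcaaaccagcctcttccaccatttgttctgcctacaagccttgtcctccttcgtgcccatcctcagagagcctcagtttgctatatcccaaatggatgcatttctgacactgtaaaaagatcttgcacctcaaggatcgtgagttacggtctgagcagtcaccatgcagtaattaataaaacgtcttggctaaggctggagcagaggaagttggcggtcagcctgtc

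The Ptger4 promoter is 66.8% G and C and holds 4 GC boxes, of which the 2 farthest from the start overlap by a base, and 1 CCAAT box. The Ptges promoter is 59.6% G and C and holds 2 GC boxes. The Ptgs1 promoter is 48% G and C and holds no match to any of the 4 motifs. Of all 32817 mouse promoters of this length, 32.7% hold a GC box, 33.8% a CCAAT box, 12.4% a TATA box and 1.55% a cAMP response element, so that a GC box or a CCAAT box is common. A match is a run of letters and not a measured binding site. No motif of the 4 was found in all 3 windows.

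By mean RPKM over the 6 libraries the genes fell in the order Ptgs1 (53.4), Ptgds (32.9), Ptger4 (28.3), Ptges (16.4), Ptges3 (13.6), Ptger1 (1.47), Ptgfr (0.065), Ptger3 (0.028), Ptgs2 (0.01) and Ptger2 (0.0017). The ranges over the libraries overlapped between neighbours in this order, except that every Ptges3 value lay above every Ptger1 value and every Ptger1 value above every Ptgfr value. The genes thus fell into a high set of a cyclooxygenase, 3 terminal synthases and 1 receptor, and a low set of at most 20 reads per library, with Ptger1 between them.

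**Figure D1:**
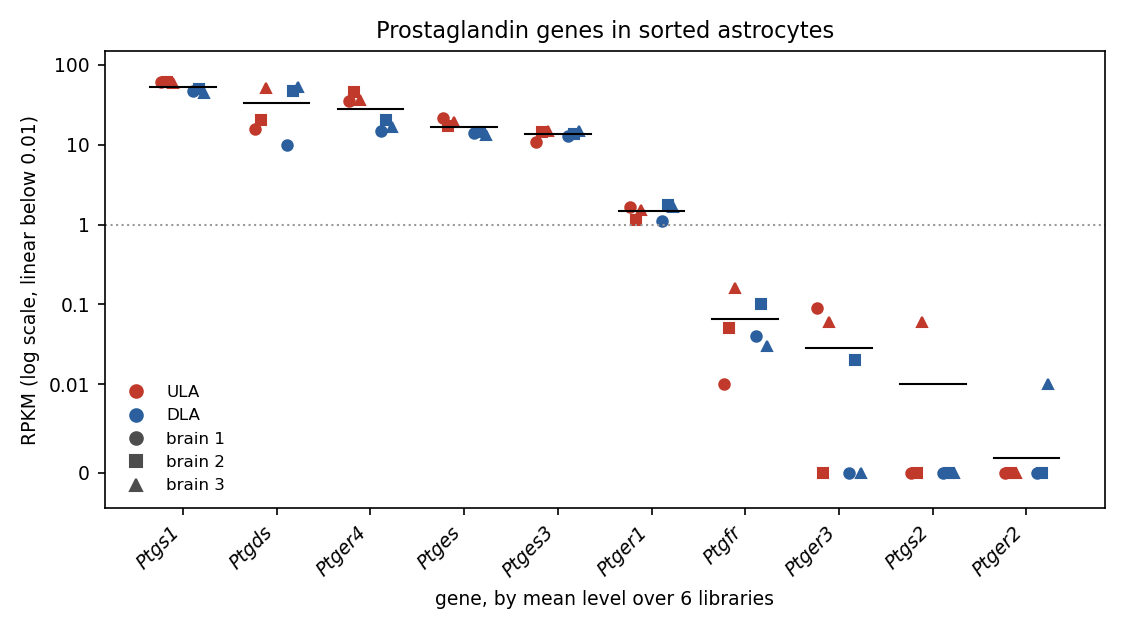
RPKM of the 10 prostaglandin genes in each library (log scale, linear below 0.01), with ULAs in red and DLAs in blue, brains by symbol, a bar at the mean of the 6 libraries and a dotted line at the filter of 1 RPKM. Ptgs1, Ptgds, Ptger4, Ptges and Ptges3 lie at 9.85 or above, Ptger1 lies between 1.11 and 1.75, and the other four stay at or below 0.16.

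Of the cyclooxygenase genes, the constitutive Ptgs1 was among the most abundant genes of the pathway and the inducible Ptgs2 was at or near 0. Ptgs1, which encodes the constitutive cyclooxygenase (chr2:36085946-36107789, plus strand, mm9, 11 exons), had RPKM values of 60.37, 61.44 and 58.63 in ULAs (brains 1, 2 and 3, the order used from here on) and of 47.17, 49.11 and 43.87 in DLAs. The 3 ULA libraries lay close together and above all 3 DLA libraries. The level was 60.1 ± 1.42 in ULAs and 46.7 ± 2.65 in DLAs, the ratio within brains averaged 1.29 ± 0.0434, and the fitted log2 difference was 0.36 (SE 0.10), from 2765 to 4509 reads per library. Ptgs2, which encodes the inducible cyclooxygenase (chr1:151947254-151955142, plus strand, 10 exons), was listed at 0 in 5 libraries and at 0.06 in the ULAs of brain 3, where the value amounts to 7 or 8 reads. A value listed at 0 can still hold 1 read of this mRNA, and 3 reads would be 0.024 to 0.037 RPKM depending on the library, so a layer difference of Ptgs2 was not detectable at this depth.

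The terminal synthases of prostaglandin E2 among the 10 genes were Ptges, whose layers did not overlap, and Ptges3, whose layers did. The difference between these genes was not tested. Ptges, which encodes the inducible, membrane-bound synthase (chr2:30744991-30758817, minus strand, 3 exons), stood at 21.41, 16.91 and 19.2 RPKM in ULAs and at 13.87, 14.22 and 13.06 in DLAs. All 3 ULA values lay above all 3 DLA values, with the smallest gap within a brain in brain 2. The means were 19.2 ± 2.25 and 13.7 ± 0.595, the ratio within brains averaged 1.40 ± 0.187, and the log2 difference was 0.45 (SE 0.12), from 1020 to 1910 reads. Ptges3, which encodes the cytosolic synthase and also serves as a co-chaperone of the heat shock protein Hsp90 (chr10:127496038-127514310, plus strand, 8 exons), stood at 10.9, 14.47 and 15.02 in ULAs and at 12.72, 13.42 and 15.01 in DLAs. These values overlapped, and the log2 difference was −0.03 (SE 0.12). An annotated pseudogene, Ptges3-ps, may share reads of 36 bases with Ptges3, so its level is uncertain. Ptges2, a further prostaglandin E synthase outside the 10 genes, was more abundant, at 48.0 ± 5.36 RPKM in ULAs and 56.4 ± 9.60 in DLAs. Its values overlapped between the layers, and the log2 difference was −0.22 (SE 0.14, adjusted p by limma 0.466). The ratio of Ptgs1 to Ptges varied little, between 2.82 and 3.63 over the 6 libraries, and the values of the layers overlapped.

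Ptgds was the gene that varied most between brains. It encodes the lipocalin-type prostaglandin D2 synthase, a secreted protein known to be abundant in the meninges, the choroid plexus and oligodendrocytes (chr2:25322232-25325269, minus strand, 7 exons). Its RPKM was 15.9, 20.45 and 50.6 in ULAs and 9.85, 47.14 and 53.41 in DLAs. Both libraries of brain 1 were low and both of brain 3 were high, and in brain 2 the DLAs alone were high. The layers therefore overlapped, at 29.0 ± 18.9 in ULAs and 36.8 ± 23.5 in DLAs, with a log2 difference of −0.20 (SE 0.26) that was 0.28 without brain 2 and −0.62 without brain 1.

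The spread between brains is independent of the layer contrast and was tested by limma's moderated F-test of the brain term, adjusted over the 13999 rows. Ptgds differed between brains (adjusted p = 0.0212) and was the 1 gene of the 6 to pass, against 399 of all rows (2.85%). The other 5 did not pass (adjusted p by limma of 0.24 for Ptger4, 0.451 for Ptges3, 0.827 for Ptges, 0.856 for Ptgs1 and 0.949 for Ptger1). Over the alternative settings that tested the brain term, the adjusted p of Ptgds in limma ran from 1.03e-05 to 0.45. Ptgds missed the threshold without the filter on low RPKM and without the variance trend. The brain term was not tested without the pairing by brain or with the length correction. Without brain 3 the number of rows that differed between brains was 691.

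Ptgds is set here beside markers of other cell types. The summed oligodendrocyte markers had RPKM values of 90.0, 87.1 and 179 in ULAs and of 178, 204 and 281 in DLAs. They were high with Ptgds in brain 3 and in the DLAs of brain 2, but in the DLAs of brain 1, where Ptgds was at its lowest, they were as high as in the ULAs of brain 3. The oligodendrocyte precursor sum was 115 where Ptgds was lowest (DLAs, brain 1) and 88.1 where it was highest (DLAs, brain 3). The meningeal fibroblast sum was 5.62 and 4.98 in the same libraries. Olig1 and Col1a1 carried these sums, and single markers of the lists differed in direction. In these libraries Sox10 was 0.23 and 0.68, and Cspg4 0.43 and 0.18, among the precursor markers. Among the meningeal markers Col1a2 was 0.86 and 1.12, and Col1a1 4.73 and 3.67. The sums therefore cannot show whether RNA of these cells follows Ptgds. The part of oligodendrocyte, oligodendrocyte precursor or meningeal RNA in the Ptgds values was not tested.

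**Figure D2:**
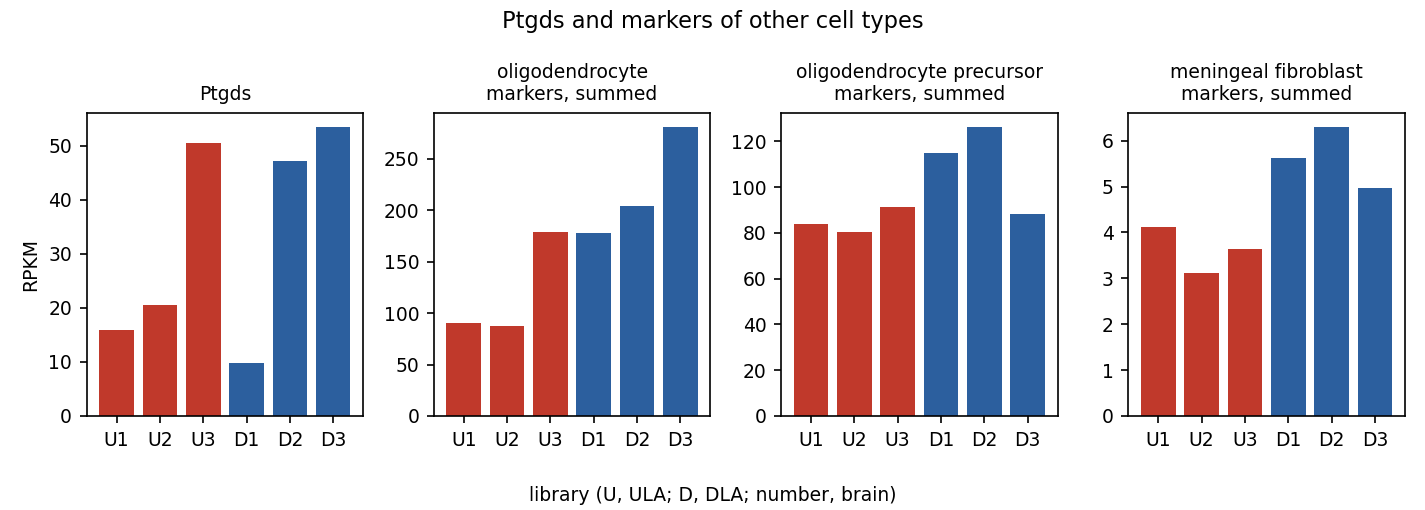
RPKM of Ptgds and summed RPKM of the oligodendrocyte, oligodendrocyte precursor and meningeal fibroblast markers, with 1 bar per library, ULAs in red and DLAs in blue. Ptgds is high in U3, D2 and D3, at 47.14 or more, while the oligodendrocyte sum in D1 (178) is close to that in U3 (179) although Ptgds in D1 is 9.85.

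Together the 5 synthesis genes summed to RPKM values of 108.58, 113.27 and 143.51 in ULAs and of 83.61, 123.89 and 125.35 in DLAs. Ptgs1 was the largest term in 5 libraries, and Ptgds in the DLAs of brain 3, where it held 42.6% of the sum. The order of the layers was not the same in every brain, since in brain 2 the DLAs were higher.

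Ptger4 was the main receptor gene in both layers. It encodes EP4 (chr15:5183404-5193831, minus strand, 3 exons) and had RPKM values of 35.21, 46.25 and 36.6 in ULAs and of 14.85, 20.23 and 16.84 in DLAs. The lowest ULA value was above the highest DLA value, and in each layer brain 2 was the highest. The means were 39.4 ± 6.01 and 17.3 ± 2.72. The ratio within brains was 2.37, 2.29 and 2.17 (mean 2.28 ± 0.0992), so that it varied less between brains than the level itself, and the log2 difference was 1.14 (SE 0.10). Between 1171 and 3515 reads per library lie behind these values.

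The other receptor genes were low. Ptger1, which encodes EP1 (chr8:86190539-86194002, plus strand, 3 exons), stood at 1.68, 1.15 and 1.5 RPKM in ULAs and at 1.11, 1.75 and 1.65 in DLAs, from 62 to 102 reads. The layers overlapped, with ULAs higher in brain 1 and DLAs higher in brains 2 and 3, and the log2 difference was −0.03 (SE 0.18). The libraries do not mark strand, so reads of opposite-strand transcripts at this locus cannot be told apart from those of Ptger1, and its level is uncertain.

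Ptger2, which encodes EP2 (chr14:45607786-45623495, plus strand, 2 exons), was listed at 0 in every library but the DLAs of brain 3, where 0.01 RPKM stood for 2 reads, and 3 reads would be 0.027 to 0.041 RPKM. Ptger3, which encodes EP3 (chr3:157229856-157307722, plus strand, 3 exons), stood at 0.09, 0 and 0.06 in ULAs and at 0, 0.02 and 0 in DLAs, that is, at most 5 reads. Ptgfr, which encodes FP (chr3:151461574-151500492, minus strand, 3 exons), stood at 0.01, 0.05 and 0.16 in ULAs and at 0.04, 0.1 and 0.03 in DLAs, from 2 to 20 reads. None of these 3 genes could show a layer difference at this depth.

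Of the summed RPKM of the EP receptor genes Ptger1 to Ptger4, Ptger4 held 95.2%, 97.6% and 95.9% in ULAs and 93.0%, 92.0% and 91.0% in DLAs. The share was thus over 90% in each library, and every ULA value lay above every DLA value. The cAMP-raising receptors are represented in these libraries by Ptger4, with Ptger2 at 2 reads or fewer per library. The RPKM of Ptgs1 relative to that of Ptger4 was 1.71, 1.33 and 1.60 in ULAs and 3.18, 2.43 and 2.61 in DLAs. This follows from their layer ratios, which averaged 1.29 for Ptgs1 and 2.28 for Ptger4. The ratio and the higher Ptger4 share in ULAs describe the layer difference of Ptger4 again and are not separate results.

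**Figure D3:**
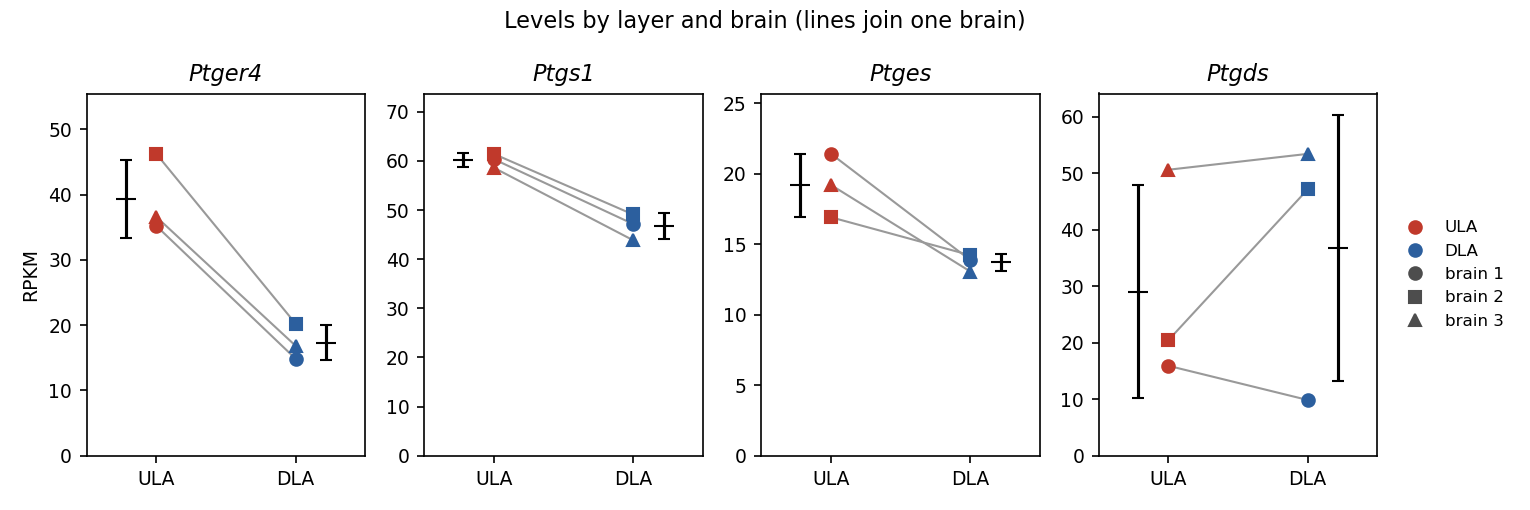
RPKM of Ptger4, Ptgs1, Ptges and Ptgds by layer, with 1 symbol per brain, grey lines joining the layers of a brain, and bars for the mean and SD of 3 brains. All lines of Ptger4, Ptgs1 and Ptges fall from ULAs to DLAs, while Ptgds falls in brain 1 and rises in brains 2 and 3.

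Across the 6 genes that passed the filter the median log2 difference was 0.16, against −0.03 over all 13999 rows. Ptger4, Ptges and Ptgs1 did not overlap between layers, which was also true of 923 rows (6.59%) with every ULA library above every DLA library. Markers of other cell types also differed in level between the layers. The ratio of Ptger4 was 2.37 in brain 1, 2.29 in brain 2 and 2.17 in brain 3, where the oligodendrocyte sums in ULAs and DLAs were 90.0 and 178, 87.1 and 204, and 179 and 281. The pericyte and smooth muscle markers included 4 of 7 that were higher in ULAs in every brain. Of the 9 microglial markers, 2 were higher in ULAs in every brain (P2ry12 and Tmem119) and 1 in DLAs. The part of other cell types in the layer values was not tested. The ratio of ULA to DLA values rose with mRNA length over all rows (Spearman's rho of 0.21, 0.37 and 0.10 in brains 1, 2 and 3). With the length correction, the log2 differences were 1.15 for Ptger4, 0.38 for Ptgs1 and 0.42 for Ptges. Without it they were 1.14, 0.36 and 0.45. Beyond this, the part of length in the values of the 3 genes was not tested.

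The 5 RefSeq rows closest to Ptger4 over the 6 libraries were 6530418L21Rik, Polr3g, Cdkn2c, Slc25a45 and Art3, by the root mean square difference of log2(RPKM + 1) values centred in each row (0.125, 0.135, 0.157, 0.161 and 0.163, among 11474 rows). 6530418L21Rik averaged 13.6 RPKM in ULAs and 5.26 in DLAs, and Polr3g, a subunit of RNA polymerase III, 5.68 and 2.05. Cdkn2c, an inhibitor of cyclin-dependent kinases, averaged 9.5 and 4.07, Slc25a45, of the mitochondrial carrier family, 5.14 and 2.46, and Art3, of the ADP-ribosyltransferase family, 19.7 and 8.39. By the same measure Ptgs1 was at rank 183 and Ptges at rank 185, with a distance of 0.42 each, and Ptgds at rank 11346.

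Genes around the pathway that are not among the 10 were read from 7 lists with 86 genes, of which 47 passed the filter. None of the 47 was called higher in ULAs and 2 were called higher in DLAs by limma, against 0.714% and 0.914% of all rows, and 11 of the 47 had an unadjusted p under 0.05, with 4 of these higher in ULAs and 7 in DLAs, against 2295 of all 13999 rows. The median log2 difference over the 47 was 0.02. Both called genes belong to the cAMP machinery, which lies downstream of EP4.

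Upstream of the cyclooxygenases, 5 of 9 genes for arachidonate release passed the filter and none was called. The most abundant was Mgll, the monoacylglycerol lipase that frees arachidonate from an endocannabinoid, at 136 ± 11.97 RPKM in ULAs and 121 ± 17.4 in DLAs. Each of the 3 brains had the larger value in ULAs, but the difference did not pass (log2 difference 0.18, SE 0.10, adjusted p by limma 0.387). Of the 5 genes, 2 were higher in DLAs in every brain, Pla2g5 and Pla2g12a. Pla2g5, a phospholipase, was at 2.93 ± 0.737 in ULAs and 4.64 ± 0.446 in DLAs (adjusted p by limma 0.105), and Pla2g12a is given at the end. Among 9 other prostanoid synthases, 6 passed the filter and none was called. Cbr3, a carbonyl reductase, was the most abundant at 114 ± 7.98 and 122 ± 27.7 (adjusted p by limma 0.787).

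None of the 5 other receptor genes of the prostanoid family reached the filter. Ptgdr, Ptgir and Tbxa2r, for prostaglandin D2, prostacyclin and thromboxane, were listed at 0 in all 6 libraries, and the highest of the list was Ptgfrn, a membrane protein that binds the prostaglandin F receptor, at 0.697 ± 0.206 in ULAs and 0.653 ± 0.180 in DLAs. Of 6 genes for transport and breakdown 3 passed the filter and none was called. Ptgr2, a reductase that inactivates keto-prostaglandins, was at 38.2 ± 3.22 in ULAs and 43.3 ± 4.65 in DLAs (adjusted p by limma 0.417).

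**Figure D4:**
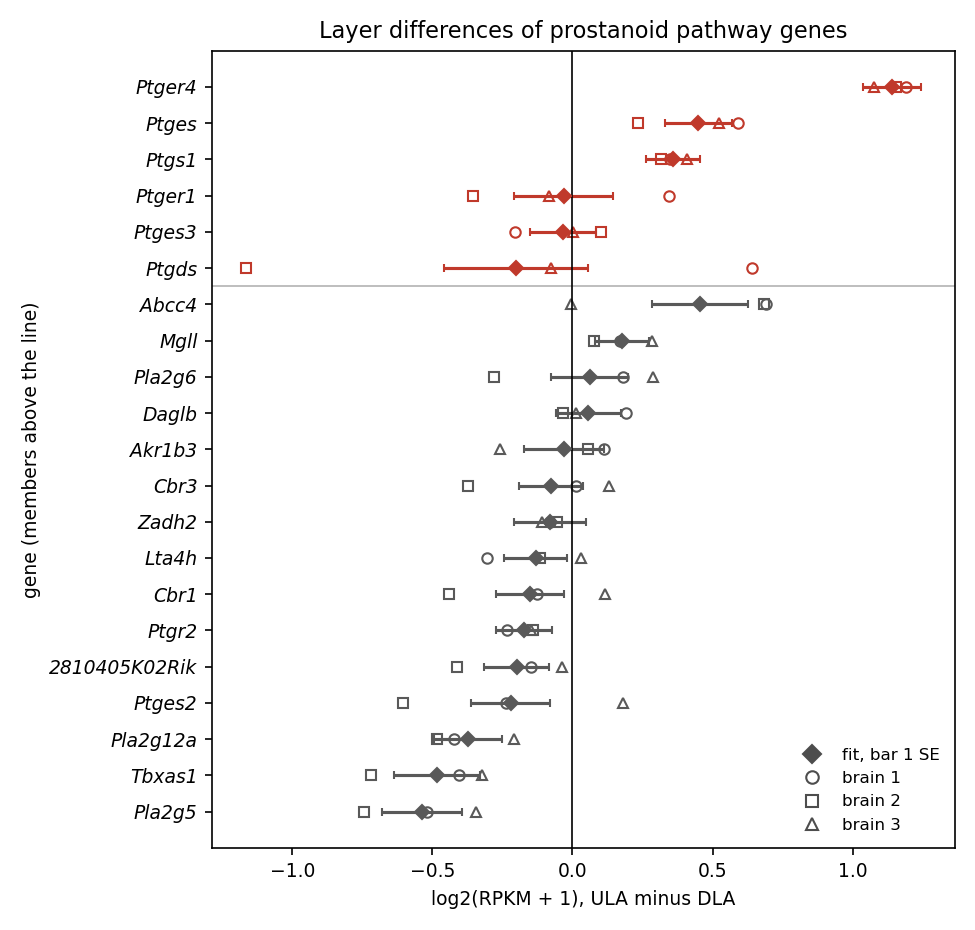
Differences of log2(RPKM + 1), ULA minus DLA, for the 6 tested prostaglandin genes (red) and the 15 other tested genes of arachidonate release, prostanoid synthesis, transport and breakdown and the leukotriene branch (grey), with filled diamonds for the fit, bars of 1 SE and open symbols for single brains. Ptger4 lies apart at 1.14, and the 3 brains of Ptgds are spread on either side of 0.

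Downstream of the cAMP-raising receptors, 22 of 30 genes of the cAMP machinery passed the filter, and 2 were called, each higher in DLAs. Adcy8, a calcium-stimulated adenylyl cyclase, stood at 0.89, 1.18 and 1.04 RPKM in ULAs and at 2.61, 3.09 and 2.14 in DLAs. The layers did not overlap (1.04 ± 0.145 and 2.61 ± 0.475, log2 difference −0.82, SE 0.16, adjusted p by limma 0.031). Gnas, which encodes the stimulatory G protein subunit, stood at 29.79, 13.38 and 34.13 in ULAs and at 45.9, 22.12 and 48.93 in DLAs. It was higher in DLAs in each brain and low in both libraries of brain 2 (log2 difference −0.60, SE 0.10, adjusted p by limma 0.0198, and 0.00154 for the difference between brains). Gnas shares 1469 exon bases with an opposite-strand transcript that had the same order of libraries, from which its reads cannot be told apart without strand. Adcy8 was called under 6 of the 10 alternative settings that tested it and Gnas under 7 of 11. Neither was called without brain 1, without the pairing by brain or without the filter on low RPKM. Adcy8 was also not called without brain 2, nor Gnas without the variance trend.

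The most abundant gene of the cAMP machinery was Rapgef3, a cAMP-activated exchange factor, at 105 ± 10.6 in ULAs and 91.0 ± 21.7 in DLAs (adjusted p by limma 0.347), which also overlaps opposite-strand transcripts. Of 14 genes that respond to cAMP through the factor CREB, 10 passed the filter and none was called. Dusp1, a phosphatase and the most abundant of them, stood at 62.2 ± 20.8 and 67.7 ± 21.1 (adjusted p by limma 0.652), and differed between brains (adjusted p by limma 0.0456).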

How the data were processed

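RNA of GFP-positive sorted cells was reverse transcribed with the SMART-Seq v4 kit, which does not mark strand, and sequenced as single reads of 36 bases from Nextera XT libraries on a HiSeq instrument. The authors deposited RPKM values, 1 row per symbol, with no read counts among the values used here. The submitters' processing notes name bcl2fastq 1.8.4, CASAVA 1.8.2 and mm9, and the aligner and counter are not given in the sources used here. Depth was read from RPKM steps in rows of up to 500 bases, where 99.7% to 100% of values were whole numbers of reads once truncation to 2 decimals was allowed for. A floor of 3 reads covers counting error only. Replicate number was taken as brain, from the study's lists per brain, and same-numbered libraries deviated together (r of 0.42, 0.33 and 0.34).

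The test was limma 3.58.1 in R 4.3.3 (lmFit, eBayes with a trend) on log2(RPKM + 1), in rows whose RPKM averaged 1 or more, brain and layer as terms, 2-sided, with Benjamini-Hochberg adjustment. Tables and figures used Python 3.11.15 with pandas 2.3.3, numpy 2.4.6 and matplotlib 3.10.9. The members and lists were chosen with earlier results of these data known. Genes outside the 10 are named if called, if most abundant in their list, or if among the 5 rows closest to Ptger4. Other pathway genes, and marker genes named singly, were chosen after their values were seen. There were 11 alternative settings: each brain left out, no pairing by brain, no variance trend, no filter, a filter at 5, a pseudocount of 0.1, quantile normalization, median centring, and a length correction (loess, span 0.5).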

Additional observations from a re-analysis of the deposited data

How the results depend on the processing

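Member log2 differences gave 65 values under the alternatives. Of these, 63 moved by less than the spread, the SD of the gene's difference over the 3 brains. The other 2 arose under quantile normalization, where Ptger4 was 1.23 and Ptgs1 0.46. In that setting 2 members were called (Ptger4 and Ptgs1), against 138 rows higher in ULAs and 103 in DLAs of 13999. The sign of a called value changed in 0 cases, with Ptger4 the 1 member called. Members that were not called did change from negative to positive. Ptger1 was 0.04 with the length correction and 0.13 without brain 2. Ptges3 was 0.05 with the length correction and without brain 1, and Ptgds was 0.28 without brain 2. Ptger4 ranged from 1.11 to 1.23, Ptges from 0.38 to 0.56 and Ptgs1 from 0.33 to 0.46 over all 11. Without the replicate block, that is, without the pairing by brain, 23 rows were higher in ULAs and 18 in DLAs, with 0 pathway genes in DLAs. Without the filter on low RPKM, 0 rows were called by limma in either direction or between brains, hence 0 members and 0 pathway genes, while 2799 of 27963 rows had an unadjusted p under 0.05 for layer. With a mean RPKM of at least 5, 1 pathway gene (Gnas) was higher in DLAs. The length correction left 76 rows higher in DLAs. Without the variance trend there were 65 and 79 rows, 1 pathway gene (Adcy8) in DLAs and 0 members differing between brains. Leaving out each brain gave 104 to 426 rows higher in ULAs, 126 to 687 in DLAs, 0 to 1 pathway genes in ULAs, 0 to 4 in DLAs and 290 to 691 rows differing between brains. The upper ends came without brain 3, where Abcc4 was called in ULAs and Adcy8, Gnas, Pla2g5 and Ptges2 in DLAs, and the causes of these changes were not tested. Depth limits Ptgs2, Ptger2, Ptger3 and Ptgfr, at 20 reads or fewer per library.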

Other observations

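Arachidonate also feeds the lipoxygenase and leukotriene branch. Of its 13 listed genes, 12 had a mean RPKM under 1, at most 1 in any library, and were not tested. The 1 gene tested was Lta4h, the hydrolase of leukotriene A4, at 22.1 ± 2.44 RPKM in ULAs and 24.2 ± 1.01 in DLAs (n = 3 brains, adjusted p by limma 0.605). Among the untested genes, chosen after its values were seen, Alox8, a lipoxygenase, had RPKM values of 0.01, 0.1 and 0 in ULAs (brains 1, 2 and 3) and of 0.41, 0.54 and 0.58 in DLAs. The 4 receptor genes for leukotrienes (Cysltr1, Cysltr2, Ltb4r1 and Ltb4r2) did not exceed 0.13 in any library.

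Pla2g12a, a secreted phospholipase, was also chosen after its values were seen. It stood at 12.26, 4.48 and 12.44 RPKM in ULAs and at 16.8, 6.66 and 14.52 in DLAs, low in both libraries of brain 2, and differed between brains (adjusted p by limma 0.00281). It was higher in DLAs in each brain, and its layer difference did not pass (adjusted p by limma 0.174).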
